A study of Mus musculus and Rattus norvegicus with 43 samples.

Results

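The 35 genes described here encode scaffolds and signalling proteins of the postsynaptic density, and their RNA was measured in the striatum of mice injected at birth with a miRNA labelled as directed at forms of TAF1 or with a control miRNA. They were found by symbol in the deposited count table. They make up 35 of its 54532 genes, and all 35 passed the filter on low counts, as did 19413 genes in all. The list was chosen by symbol, and it was proposed with the measured differences between these same groups in view. The fold changes and p-values below are therefore a description of these animals, and the number of members past a threshold supports nothing about the list as a whole.

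The postsynaptic density is the protein-rich layer under the membrane of an excitatory synapse, facing the site of glutamate release. Membrane-associated guanylate kinases (the Dlg genes) hold glutamate receptors there, DLGAP proteins link them to the SHANK proteins, and SHANK proteins in turn bind Homer and the actin cytoskeleton of the spine. In striatum these synapses sit mostly on the spines of spiny projection neurons, where SHANK3 and DLGAP3 are abundant, and mice that lack either protein are known for excessive grooming.

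All animals were C57BL/6 mice injected on postnatal day 0, and striatum of a single hemisphere was taken at 4 months of age. In the N group (8 mice) the injected miRNA is labelled N-TAF miRNA, in the CN group (5 mice) it is labelled C/N-TAF miRNA, and the control group (8 mice) received a control miRNA. Taf1 codes for a core scaffold of TFIID, which starts transcription at RNA polymerase II promoters, and N-TAF names a form of its protein made in neurons. Neither vector, promoter, reached cells nor the animals' sex is given in the sources used here. Each library is a separate animal by its label, and libraries hold between 24.9 and 35.6 M counts. Levels are in CPM, the count divided by the library total after TMM scaling, which makes libraries comparable.

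Taf1 itself was not called in either injected group, at a log2 fold change of -0.02 for N and -0.12 (adjusted p = 0.703 by edgeR) for CN against control. The CN value was 0.03 without CN library 2. It was at 83.7 (lowest), 99.8 (median) and 103.6 (highest) CPM in N libraries, at 101.1, 50.6, 95.7, 101.3 and 104.8 CPM in CN libraries 1 to 5, and at 87.1, 100.6 and 103.2 CPM in controls. Only CN library 2 lay below all controls by a wide margin. Counts are summed over the forms of the gene, so they give no level of N-TAF alone, and directions below are those of the groups as labelled. The markers of spiny projection neurons are abundant in all 21 libraries. Their 10 genes summed to between 5959 and 7688 CPM in N, 6359 and 9814 CPM in CN and 7085 and 8006 CPM in control libraries.

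CN library 2 stood apart from the other libraries in a way that touches most members. Its deviation from the control mean fell steeply with transcript length, with a Spearman rho of -0.61 over 15467 genes, against 0.42 in CN library 1 and values between -0.37 (N library 4) and 0.11 (control library 8) in the others. Members have long transcripts. Their median length is 6017 bases, against 2784 bases over tested genes, and 23 of them reach 5098 bases, where the longest of 5 equal classes of genes begins. In CN library 2, 23 members were below every other library and 6 were above every other library. The extremes were Lrrc7 at 45.3 CPM, 1.99 log2 units under the control mean, and Nrgn at 1717 CPM, 0.84 units over it. The median deviation of the 35 genes in that library was -0.45 log2 units, and 0.14 after its length trend was taken away. Results are therefore given with and without that library. The mean rho differed by -0.10 between N and control libraries (exact permutation test, two-sided, p = 0.124) and by -0.11 between CN and control libraries (p = 0.458, same exact test). The CN difference was 0.014 without CN library 2 (p = 0.937, same exact test).

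**Figure D1:**
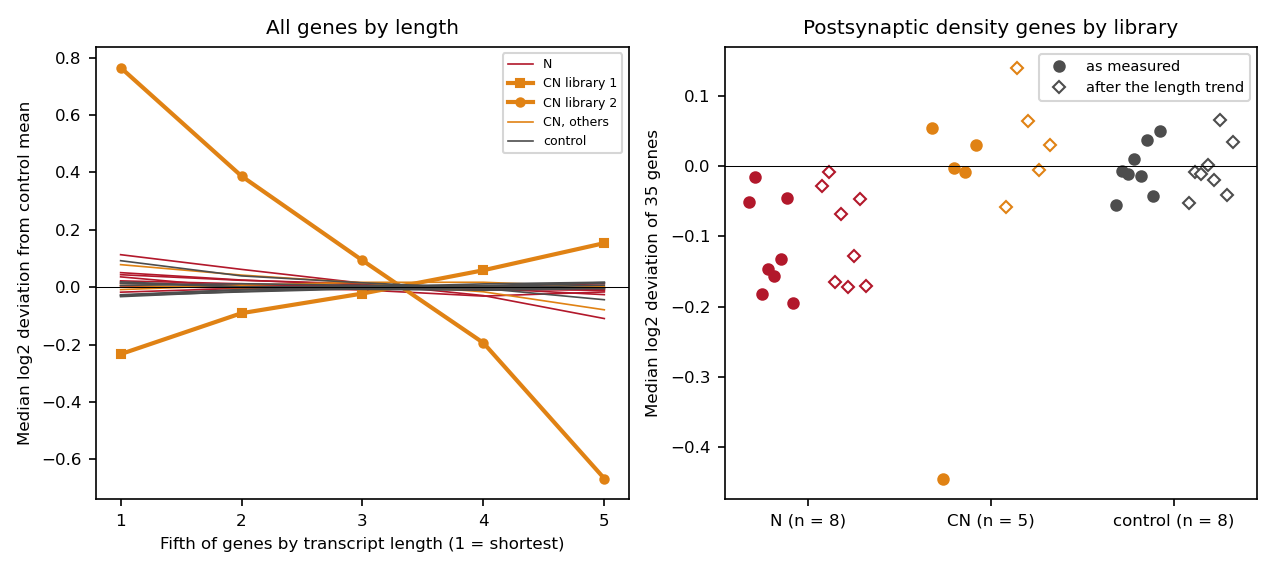
Left, median log2 deviation from the control mean for genes in 5 classes of transcript length, 1 line per library. CN library 2 falls most steeply, CN library 3 and N library 4 fall less and CN library 1 rises. Right, median log2 deviation of the 35 genes per library, as measured (filled) and after the library's length trend was removed (open), with CN library 2 at -0.45 and 0.14.

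Levels between genes were compared per kilobase of the longest annotated transcript. The genes of calcium and calmodulin signalling were the most abundant. Nrgn, which encodes neurogranin, a calmodulin-binding protein of dendritic spines, averaged 563 ± 132 CPM per kilobase in N, 722 ± 299 in CN and 661 ± 56.7 in control libraries (SD, n = 8, 5 and 8). Ppp3ca, the catalytic A-alpha subunit of the phosphatase calcineurin, followed at 492 ± 41.6, 603 ± 56.3 and 536 ± 29.6 in the same groups and order. Camk2b, a subunit of the kinase CaMKII, had 346 ± 20.8, 380 ± 37.4 and 375 ± 20.2. The SD of Nrgn was far wider in the injected groups than in controls, since N libraries 3, 5 and 8 and CN library 1 were low and CN library 2 was high. Among scaffolds of the core chain Dlgap3 and Dlg4 led at 153 ± 10.4 and 147 ± 8.92 CPM per kilobase in controls, and Shank3 (67.0 ± 5.04) stood above Shank2 (13.0 ± 0.439) and Shank1 (12.6 ± 2.29). Homer3 (2.80 ± 0.285) and Homer2 (1.66 ± 0.169) were lowest. Of the 34 pairs of neighbours in the control order, 14 differed by less than the joint SD of the pair, among them Camk2a and Ppp1r9b, Dlgap3 and Baiap2, and Shank3 and Cyld.

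**Figure D2:**
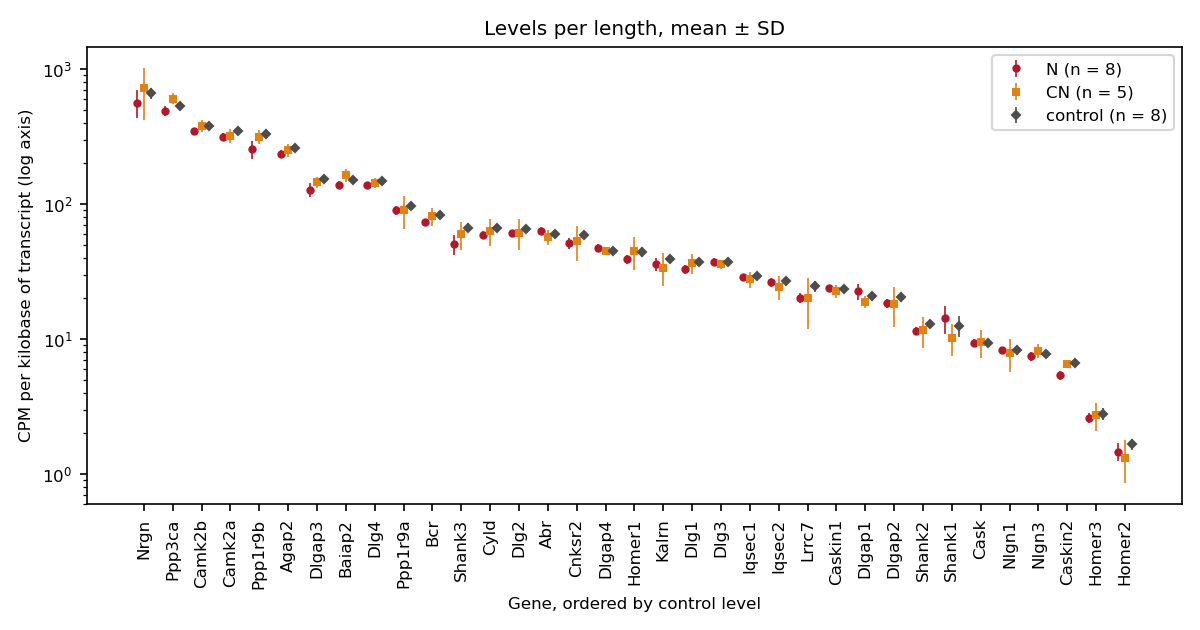
Mean level per length (CPM per kilobase of transcript, log axis) with SD for each gene in N, CN and control libraries, ordered by the control mean. Levels span from Nrgn at 661 to Homer2 at 1.66 in controls, and the SD is widest in the CN group for most genes.

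The comparison of N with control mice asks how these genes differ after the miRNA labelled N-TAF. Most members were lower in N animals by small amounts. The median log2 fold change was -0.13 over the 35 genes, against 0.0067 over all tested genes, and 27 members were below 0 and 8 above. With all 21 libraries in the fit no member passed a Benjamini-Hochberg adjusted p of 0.05 by edgeR's quasi-likelihood test. That threshold was passed by 0% of all genes tested. At an unadjusted p under 0.05 there were 10 members, against 9.39% of all genes. DESeq2 called 3 members lower (Caskin2, Ppp1r9b and Dlgap3), against 0.489% of genes called in either direction and 0.304% called lower, and limma-voom called 0. Without CN library 2 the fold changes barely moved, but the estimated spread was smaller, and 9 members fell while 0 rose. Of all genes 1.0% were called in that fit, 0.667% lower and 0.336% higher. At an unadjusted p under 0.05 there were 20 members, against 16.2% of genes. Caskin2 alone was called without CN library 1 (0.0559% of genes called) and with an offset for transcript length (0.0309%), and Caskin2 and Ppp1r9b without N library 1 (0.165%). The 9 calls also rest on single libraries. With CN library 2 out, leaving out control library 2, 3, 4 or 8 or N library 8 as well gave 1 call, Caskin2, with 0.0511% to 0.215% of genes called. N library 5 gave 2 (0.199%), and control library 1 or 7 or N library 3 gave 3 (0.153% to 0.316%). Without CN library 2 and the 2 N libraries rich in the muscle gene Myh4, 1 call was left (0.0256% of genes), and without CN library 2 and 3 libraries rich in Xist also 1 (0.123%). Below, fell and rose refer to the fit without CN library 2. Since the list was drawn up with such results known, nothing is read from the difference between these shares. In bulk tissue, fewer cells of a type and less RNA per cell cannot be told apart.

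**Figure D3:**
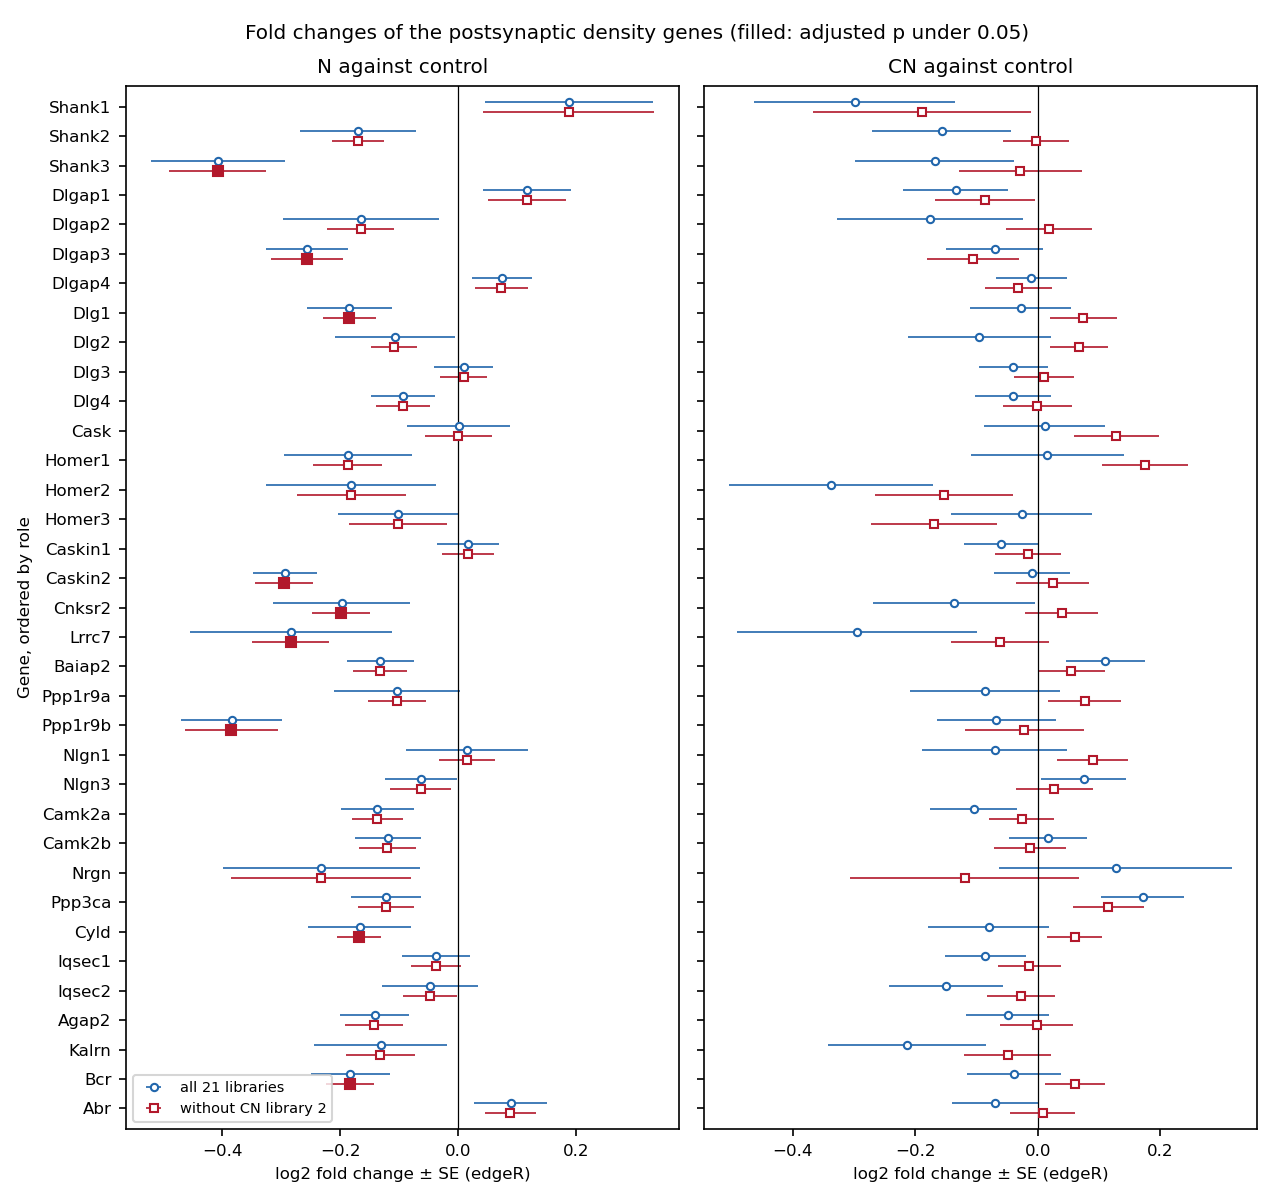
Log2 fold change with its SE for each gene, N against control (left) and CN against control (right), from the edgeR fit of all 21 libraries (circles) and without CN library 2 (squares). Filled symbols mark an adjusted p under 0.05. The 9 filled squares all lie to the left of 0 in the N panel, and the CN panel has none.

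Of the SHANK scaffolds, which organise the deep layer of the density, Shank3 fell and Shank1 did not. Shank3 was at 285 (lowest), 369 (median) and 472 (highest) CPM in N, 425, 265, 498, 499 and 509 CPM in CN libraries 1 to 5 and 433 (lowest), 500.0 (median) and 541 (highest) CPM in control libraries. N libraries 1 and 2 lay within the control range, and the other 6 lay below every control. For N the log2 difference was -0.41 (SE 0.114, adjusted p = 0.221 by edgeR), and -0.41 (SE 0.0826, adjusted p = 0.0306 by edgeR) without CN library 2. Shank2 was at 90.2 (lowest), 106 (median) and 112 (highest) CPM in N libraries, against 110.4 (lowest), 117 (median) and 121 (highest) CPM in controls. All but 1 N library lay below every control, at a log2 fold change of -0.17 (SE 0.0444, adjusted p = 0.0589 by edgeR) without CN library 2. Shank1 went the other way in level, with 105 (lowest), 132 (median) and 205 (highest) CPM in N, 138, 69.8, 94.2, 86.5 and 114 CPM in CN libraries 1 to 5 and 98.0 (lowest), 117 (median) and 156 (highest) CPM in control libraries. The groups overlapped widely, N libraries 5 and 7 being the high ones at 205 and 174 CPM, and the fold change of 0.19 (SE 0.142, adjusted p = 0.770 by edgeR) did not pass.

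The DLGAP proteins bridge the Dlg and SHANK layers, and of their 4 genes Dlgap3 alone fell. Dlgap3 was at 453 (lowest), 545 (median) and 612 (highest) CPM in N, 518, 677, 639.6, 592 and 632 CPM in CN libraries 1 to 5 and 590.3 (lowest), 636 (median) and 715 (highest) CPM in controls. The lowest were N libraries 3 and 8, and 6 of 8 N libraries lay below all controls. Its log2 difference was -0.26 (SE 0.0698, adjusted p = 0.219 by edgeR) in all libraries and -0.26 (SE 0.0613, adjusted p = 0.0436 by edgeR) without CN library 2. Dlgap2 had -0.17 (SE 0.0571, adjusted p = 0.140 by edgeR) without CN library 2, with every N library under the control mean but 1 of 8 under all controls. Dlgap1 and Dlgap4 had positive values of 0.12 and 0.07 that did not pass.

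Among the membrane-associated guanylate kinases, Dlg1, which encodes the scaffold SAP97, fell, while Dlg4, which encodes PSD-95, did not pass. Dlg1 was at 178 (lowest), 203 (median) and 233 (highest) CPM in N, 255, 161, 232, 235 and 239.7 CPM in CN libraries 1 to 5 and 216 (lowest), 228 (median) and 242 (highest) CPM in controls. N library 1 was inside the control range and the other 7 lay below it, at a log2 fold change of -0.18 (SE 0.0451, adjusted p = 0.0451 by edgeR) without CN library 2. In that fit Dlg4 had -0.09 (SE 0.0460, adjusted p = 0.314 by edgeR) and Dlg2, which encodes PSD-93, -0.11 (SE 0.0389, adjusted p = 0.157 by edgeR). Dlg3 (0.01) and Cask (0.00) were near 0. All 3 Homer genes, whose products tie SHANK to group I metabotropic glutamate receptors, had negative values between -0.19 and -0.10, and none passed.

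The adaptor genes held 4 of the 9 members that fell, which were Caskin2, Ppp1r9b, Lrrc7 and Cnksr2. Caskin2, named for its relation to the CASK-binding protein CASKIN1, had the smallest p of all members. Its levels were 23.4 (lowest), 27.0 (median) and 30.0 (highest) CPM in N, 34.7, 29.7, 32.1, 32.6 and 33.2 CPM in CN libraries 1 to 5 and 30.7 (lowest), 32.3 (median) and 36.2 (highest) CPM in controls. Every N library was below every control, and the CN libraries were within or just under the control range. For N the log2 difference was -0.29 (SE 0.0545, adjusted p = 0.0858 by edgeR) with all libraries and -0.29 (SE 0.0495, adjusted p = 0.00967 by edgeR) without CN library 2. Ppp1r9b, which encodes spinophilin, an actin-binding protein that targets protein phosphatase 1 to spines, was at 874 (lowest), 1133 (median) and 1409 (highest) CPM in N, 1246, 1255, 1562, 1461 and 1602 CPM in CN libraries 1 to 5 and 1268 (lowest), 1472 (median) and 1755 (highest) CPM in controls. All N libraries but library 1 lay below every control. Its log2 difference was -0.38 (SE 0.0851, adjusted p = 0.121 by edgeR), and -0.38 (SE 0.0791, adjusted p = 0.0306 by edgeR) without CN library 2.

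Lrrc7, which encodes densin-180, a scaffold that binds CaMKII, was at 122 (lowest), 147 (median) and 162 (highest) CPM in N, 200.3, 45.3, 146, 171 and 172 CPM in CN libraries 1 to 5 and 154 (lowest), 183 (median) and 199.7 (highest) CPM in controls. In 5 of 8 N libraries it was below every control, and CN library 2 was far below all. Without that library the log2 fold change for N was -0.28 (SE 0.0656, adjusted p = 0.0389 by edgeR), while with it the same difference had an adjusted p of 0.665 by edgeR. Cnksr2, a scaffold of Ras signalling, had -0.20 (SE 0.0491, adjusted p = 0.0489 by edgeR) without CN library 2. Ppp1r9a, which encodes neurabin, and Baiap2, which encodes the membrane-bending adaptor IRSp53, had -0.10 and -0.13 and did not pass. Caskin1 was at 0.02. Both neuroligin genes, Nlgn1 and Nlgn3, which encode adhesion proteins that bind presynaptic neurexins, lay near 0 at 0.01 and -0.06.

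All 5 genes of calcium signalling and ubiquitin removal had negative values for N, and Cyld fell. Cyld, a deubiquitinase found in the postsynaptic density, was at 434 (lowest), 478 (median) and 513 (highest) CPM in N, 543, 304, 568, 554 and 555 CPM in CN libraries 1 to 5 and 514 (lowest), 531 (median) and 556 (highest) CPM in controls. No N library reached the lowest control, but the margin was narrow, with 513.1 CPM in N library 1 and 513.5 CPM in control library 4. The fold change without CN library 2 was -0.17 (SE 0.0372, adjusted p = 0.0343 by edgeR). Caskin2 and Cyld were the 2 members for which all N libraries lay below all controls, a pattern shown by 0.108% of genes tested. The mouse library whose label does not spell out an injection, which entered no comparison, also lay below every control for both genes (29.6 and 512.6 CPM). At least 7 of 8 N libraries lay below all controls for 5 members, against 0.695% of genes, and no member had every N library above all controls, against 0.103% of genes. Nrgn was at 529 (lowest), 864 (median) and 1027 (highest) CPM in N libraries, against 859 (lowest), 942 (median) and 1135 (highest) CPM in controls. N libraries 3, 5 and 8 were low at 662, 529 and 619 CPM, library 6 was just under the controls and the other 4 overlapped them, so the value of -0.23 (SE 0.152, adjusted p = 0.482 by edgeR) without CN library 2 carried a wide error. Camk2b was at 1234 (lowest), 1382 (median) and 1513 (highest) CPM in N, 1287, 1669, 1623, 1574 and 1489 CPM in CN libraries 1 to 5 and 1414 (lowest), 1501 (median) and 1655 (highest) CPM in controls, with 5 of 8 N libraries below all controls. Camk2a, Camk2b and Ppp3ca, at -0.14, -0.12 and -0.12, did not pass.

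Regulators of small GTPases, which act on spine actin and receptor traffic, were mixed, and Bcr fell. Bcr encodes a GTPase-activating protein for Rac. Its levels were 449.5 (lowest), 511 (median) and 535 (highest) CPM in N, 616, 402, 588, 587 and 579.5 CPM in CN libraries 1 to 5 and 512 (lowest), 573 (median) and 599 (highest) CPM in controls. Of the N libraries, 4 of 8 lay below all controls and the other 4 within their range, of which control library 5 was lowest. For N the log2 difference was -0.18 (SE 0.0676, adjusted p = 0.375 by edgeR), and -0.18 (SE 0.0405, adjusted p = 0.0331 by edgeR) without CN library 2. Its close relative Abr had a positive value of 0.09 (SE 0.0434, adjusted p = 0.312 by edgeR). Agap2 (-0.14), an ArfGAP, Kalrn (-0.13), which encodes kalirin, a protein of dendritic spines, and the Arf exchange factors Iqsec1 (-0.04) and Iqsec2 (-0.05) did not pass.

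**Figure D4:**
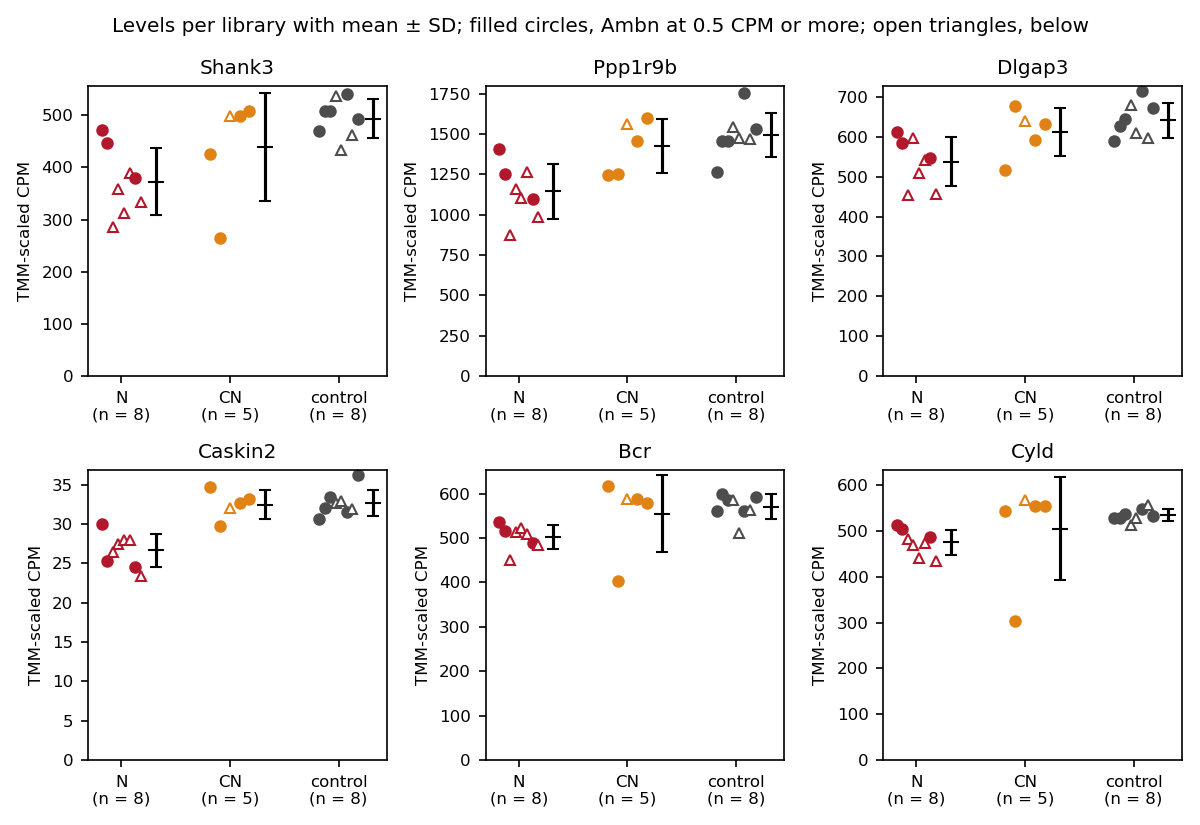
CPM per library (points) with mean ± SD (bars) for Shank3, Ppp1r9b, Dlgap3, Caskin2, Bcr and Cyld, with N left, CN in the middle and control right. Filled circles are libraries with Ambn at 0.5 CPM or more and open triangles those below. For Caskin2 and, by a narrow margin, for Cyld no N point reaches the lowest control.

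The members stood lower in some N libraries than in others, and other genes differed between those libraries too. The median deviation of the 35 genes was -0.20 to -0.13 log2 units in N libraries 3, 4, 5, 6 and 8 and -0.05 to -0.02 in N libraries 1, 2 and 7, against -0.05 to 0.05 in controls. The libraries of the first set hold under 0.5 CPM of Ambn, a gene of the enamel matrix, and those of the second set hold 2.09 CPM or more. In controls the same division gave -0.04 to 0.01 for 3 libraries under 0.5 CPM and -0.05 to 0.05 for 5 above. The gap between the N libraries was narrower once the length trend of each library was removed. N library 4 then moved from -0.15 to -0.07, next to N library 7 at -0.05. N libraries 3, 5, 6 and 8 lay between -0.17 and -0.13 after that step. With the Ambn class as a covariate and CN library 2 left out, 2 members remained called for N (0.0814% of genes called), Caskin2 at -0.29 (adjusted p = 0.021 by edgeR) and Shank3 at -0.37 (adjusted p = 0.049). Within the classes 0 members were called (0% of genes). At an unadjusted p under 0.05 there were 6 members in the class with Ambn, against 5.33% of genes, and 16 in that without, against 11.8%. Shank3 was at -0.22 (adjusted p = 0.686 by edgeR) in the class with Ambn and -0.50 (adjusted p = 0.152, edgeR) in that without. The difference between classes passed for 0 of 19790 genes by edgeR, with 3 members at an unadjusted p under 0.05 against 3.96% of genes. For Shank3 the N mean was 336 ± 40.6 CPM in 5 libraries under 0.5 CPM of Ambn and 433 ± 48.4 CPM in 3 libraries above it, beside control means of 477 ± 53.2 CPM (n = 3) and 503 ± 26.0 CPM (n = 5) in the same classes.

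Cell type markers also differed between N and control animals. All 10 spiny projection neuron genes had negative values for N (median -0.15), and 1 of them, Drd2, passed without CN library 2. N libraries 3, 5 and 8, the lowest for Nrgn and among the lowest for Shank3, had Ppp1r1b at 1532, 1489 and 1594 CPM, against 1925 to 2149 CPM in controls. Other libraries did not follow this. N libraries 4 and 6, with member medians of -0.15 and -0.13, had Ppp1r1b within the control range, at 2084 and 1928 CPM. N library 7, with a member median of -0.05, had it at 1762 CPM. In CN library 1 it was at 1445 CPM, below every N library. All 5 endothelial genes were lower in N (median -0.46, 3 called without CN library 2) and all 5 neuroblast genes higher (median 0.60, 3 called). All 5 astrocyte genes were higher in N (median 0.22), of which Gja1 was called without CN library 2. All 7 choroid plexus genes were also higher (median 1.06, 0 called). Their sums were 1732 and 3679 CPM in N libraries 5 and 6. In the remaining N libraries they spanned 30.6 to 510 CPM, within the control range of 25.6 to 1022 CPM. All 5 microglia genes (median -0.10) and all 5 oligodendrocyte genes (median -0.10) were lower, with 0 called. Summed endothelial markers spanned 119 to 174 CPM in N, against 157 to 219 CPM in control libraries. Summed neuroblast markers spanned 119.7 to 206 CPM in N, against 85.3 to 114 CPM in control libraries. All 12 markers of cortical and hippocampal excitatory neurons were higher in N (median 0.35, 0 called). They summed to 235 to 635 CPM in N, against 218 to 427 CPM in controls, with N library 7 the highest. That library also had high Shank1 (174 CPM) and the highest Dlgap1 (207 CPM). Muscle Myh4 was at 15.7 and 15.0 CPM in N libraries 5 and 8 and under 1 CPM elsewhere, and the count of calls without those libraries is given above. The part of the other marker genes in the results was not tested.

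**Figure D5:**
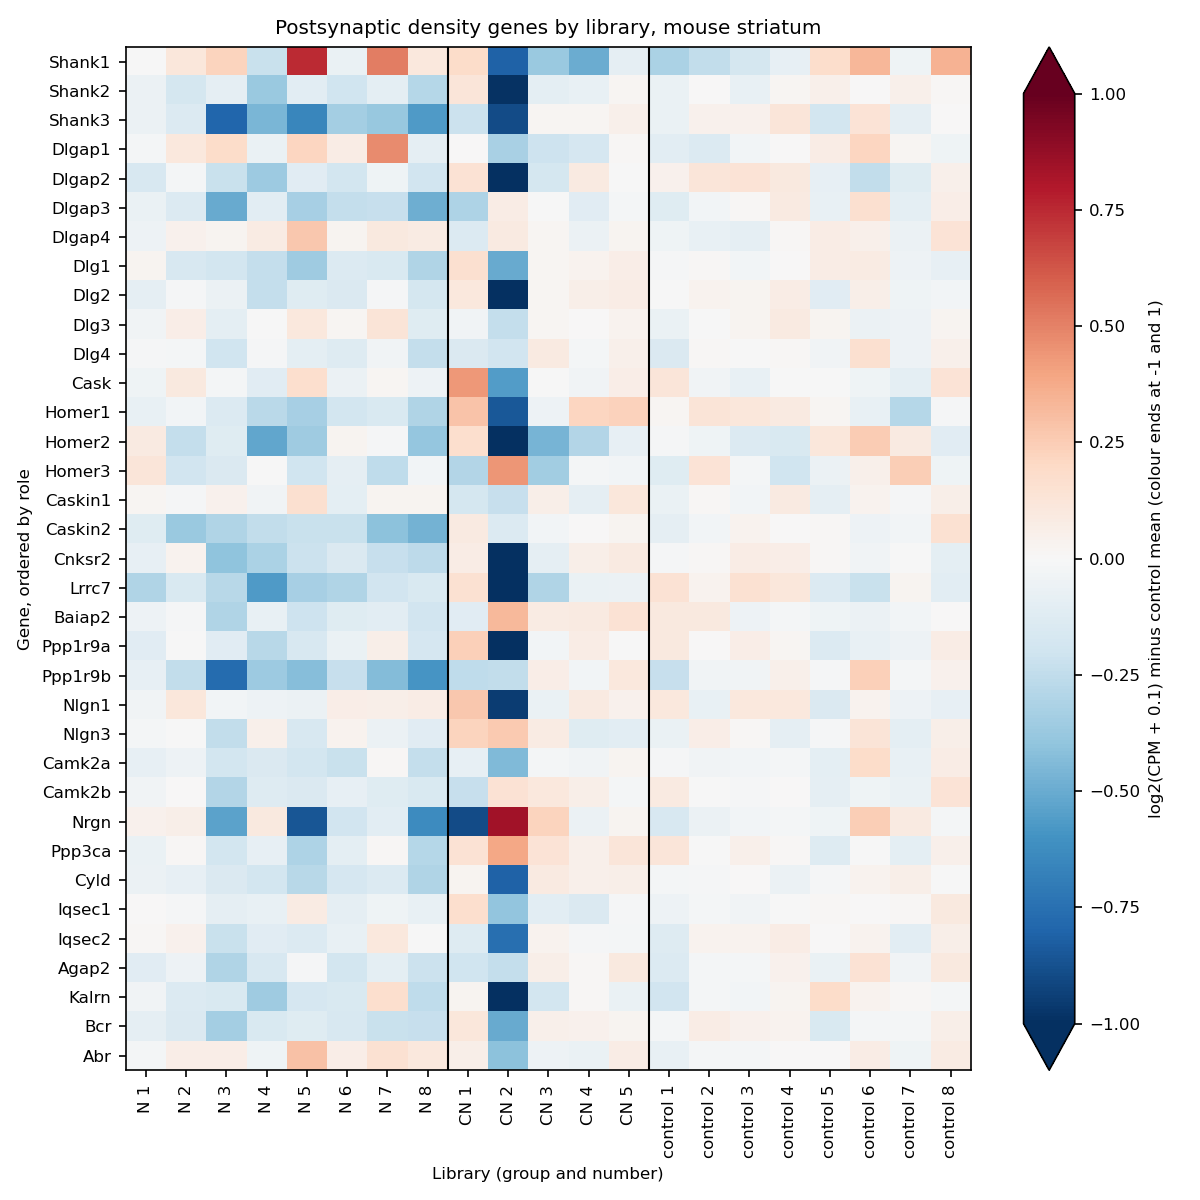
Deviation of each gene from the control mean, log2(CPM + 0.1), in each library, with N left, CN in the middle and control right, and genes in rows by role. Blue is lower and red higher, and the colour scale ends at -1 and 1. CN library 2 has the deepest blue, down to -1.99 for Lrrc7. Between 22 (library 7) and 32 (library 4) of the 35 genes are below the control mean in N libraries. In control libraries the count runs from 10 (library 4) to 26 (libraries 1 and 7), so the ranges overlap.

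Promoter sequence is shown for the members of smallest p for N against control that the RefSeq promoter table (build GRCm38.p6, 250 bases before to 50 after the transcription start) holds, so that their base composition can be compared. Caskin2 is named only. They are Shank3 (chr15:89499358-89499657), Ppp1r9b (chr11:94990962-94991261), Dlgap3 (chr4:127172630-127172929) and Bcr (chr10:75060646-75060945), all on the plus strand and written 5′ to 3′. Capitals mark the GC box GGGCGG or its complement CCGCCC, the Sp1-type element.
Shank3 promoter: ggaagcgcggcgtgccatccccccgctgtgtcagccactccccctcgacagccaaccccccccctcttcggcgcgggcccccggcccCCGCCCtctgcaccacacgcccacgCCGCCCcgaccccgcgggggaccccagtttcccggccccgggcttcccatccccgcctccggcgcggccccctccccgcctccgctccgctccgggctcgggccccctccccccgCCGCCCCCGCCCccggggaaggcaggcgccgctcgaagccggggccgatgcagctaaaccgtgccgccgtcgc
Ppp1r9b promoter: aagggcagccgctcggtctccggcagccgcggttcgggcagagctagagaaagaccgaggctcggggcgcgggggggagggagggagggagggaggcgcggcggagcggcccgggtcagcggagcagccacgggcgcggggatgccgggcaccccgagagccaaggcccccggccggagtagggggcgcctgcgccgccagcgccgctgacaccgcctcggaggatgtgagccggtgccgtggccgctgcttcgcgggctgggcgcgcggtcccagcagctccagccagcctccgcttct
Dlgap3 promoter: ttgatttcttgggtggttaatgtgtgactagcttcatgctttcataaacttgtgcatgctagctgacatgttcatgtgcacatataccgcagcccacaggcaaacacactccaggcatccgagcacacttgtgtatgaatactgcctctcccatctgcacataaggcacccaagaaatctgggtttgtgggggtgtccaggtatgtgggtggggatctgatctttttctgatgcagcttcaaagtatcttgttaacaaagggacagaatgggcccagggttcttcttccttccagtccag
Bcr promoter: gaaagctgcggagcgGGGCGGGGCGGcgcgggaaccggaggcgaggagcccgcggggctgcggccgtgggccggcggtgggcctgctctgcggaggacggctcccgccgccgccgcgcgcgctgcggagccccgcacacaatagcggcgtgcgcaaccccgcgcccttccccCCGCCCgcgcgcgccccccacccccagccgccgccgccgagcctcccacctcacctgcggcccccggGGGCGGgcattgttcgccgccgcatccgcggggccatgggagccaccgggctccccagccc
The promoters of Shank3 and Bcr hold 4 GC boxes each, with 40 and 48 CpG, and that of Ppp1r9b holds 0 boxes and 39 CpG. The Dlgap3 window is unlike them, with 2 CpG and a GC content of 47.7%, against 81% for Shank3. None of the 4 holds CCAAT or TATAAA on either strand. Over the 46 promoters of the 26 members in the table, GGGCGG was present in 56.5%, against 35.7% of 32851 promoters, CCAAT in 32.6% against 37.4% and TATAAA in 10.9% against 13.6%, counting both strands. The median number of CpG was 14.5 in member promoters and 7 in all. These are descriptions of the letters in those windows.

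Other genes of the postsynaptic density were taken from a separate list of 55, of which 54 were found by symbol and tested. For N against control their median was -0.06, with 38 below 0, 0 called with all libraries and 2 called without CN library 2. Synpo, which encodes the spine apparatus protein synaptopodin, was at 139 (lowest), 164 (median) and 182 (highest) CPM in N, against 177, 195 and 206 CPM in controls. It fell at -0.27 (SE 0.0574, adjusted p = 0.031 by edgeR). Camk2g, the gamma subunit of CaMKII, rose at 0.18 (SE 0.0441, adjusted p = 0.049 by edgeR), opposite in sign to Camk2a and Camk2b. Its levels were 126, 142 and 148 CPM (lowest, median and highest) in N, against 114, 124 and 130.2 CPM in controls, so the groups overlapped. Git1 and Sipa1l3, regulators of Arf and Rap GTPases, had -0.15 and -0.17 and did not pass.

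The comparison of CN with control mice asks the same of the miRNA labelled C/N-TAF. By edgeR 0 members and 0% of all genes were called, with or without CN library 2. At an unadjusted p under 0.05 there was 1 member in each fit, against 8.36% of all genes with that library and 5.83% without. DESeq2 and limma-voom likewise called 0 members, and without CN library 1 edgeR called 0.00508% of genes, with no member among them. The median over members was -0.07 with all libraries and -0.0019 without CN library 2, against 0.00076 and -0.0035 over all genes tested. Ppp3ca had the smallest p, at 2811, 3334, 2794, 2642 and 2767 CPM in CN libraries 1 to 5 and 2331 (lowest), 2552 (median) and 2768 (highest) CPM in controls. CN library 2 is the high one, 3 CN libraries lay above all controls, and the value was 0.17 (SE 0.0677, adjusted p = 0.590 by edgeR) with it and 0.11 (SE 0.0580, adjusted p = 0.835 by edgeR) without. Baiap2 was at 558, 758, 642, 644 and 668 CPM in CN libraries 1 to 5, against 583 (lowest), 596 (median) and 648 (highest) CPM in controls. Its libraries 2 and 5 lay above all controls and library 1 below, at 0.11 with CN library 2 and 0.05 without. The negative values of Homer2 (-0.34), Shank1 (-0.30) and Kalrn (-0.21) were smaller without that library, at -0.15, -0.19 and -0.05. Homer2 was at 20.5, 6.78, 13.1, 14.8 and 17.2 CPM in CN libraries 1 to 5, and at 16.3 (lowest), 17.8 (median) and 21.7 (highest) CPM in controls, with CN library 2 lowest of all. Kalrn was at 416, 187, 361, 413 and 392 CPM in CN libraries, against 359 (lowest), 408 (median) and 464 (highest) CPM in controls, and only CN library 2 was outside the control range. Of the separate postsynaptic list 0 genes were called in either fit, and those of smallest p were Iqsec3 (-0.25), Tanc1 (-0.29), Sipa1l3 (-0.16) and Lrrtm4 (0.16) with all libraries. Without CN library 2 these 4 had -0.14, -0.14, -0.08 and 0.09, and other genes had the smallest p (Akap5, Lzts1, Lrrc4c and Arhgap32, between 0.11 and 0.13). Shank3, at -0.03 without CN library 2, and Caskin2, at 0.02, were near 0 for CN where they were lower for N, both against the same controls.

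The difference between CN and N mice was tested directly, since both comparisons above share their controls. With all libraries edgeR called 0 members (0% of all genes), with 9 at an unadjusted p under 0.05, against 11.8% of genes. DESeq2 called Caskin2, Ppp3ca and Baiap2 higher in CN, against 0.927% of genes called and 0.453% called higher, and limma-voom called 0. Without CN library 2, 5 members were higher in CN than in N, against 0.356% of genes called in either direction, 0.260% higher and 0.0967% lower, and the median over the 35 genes was 0.13, against -0.011 over all genes. At an unadjusted p under 0.05 there were 18 members, against 15.7% of genes. With all other libraries kept, 1 member was called without N library 1 (0.119% of genes) and 1 with the length offset (0.144%). With CN library 2 out, leaving out CN library 1, 4 or 5 as well gave 0 calls, N library 1 gave 9 (1.71% of genes called) and N library 2 gave 8 (0.788%). There were also 0 calls without CN library 2 and the Myh4-rich libraries (0.0308% of genes), and with the Ambn class as covariate (0.0407%). The 5 genes were Homer1 at 0.36 (SE 0.0700, adjusted p = 0.0223 by edgeR), Caskin2 at 0.32 (SE 0.0597, adjusted p = 0.0198 by edgeR), Dlg1 at 0.26 (SE 0.0547, adjusted p = 0.0328 by edgeR), Bcr at 0.24 (SE 0.0491, adjusted p = 0.0234 by edgeR) and Cyld at 0.23 (SE 0.0451, adjusted p = 0.0234 by edgeR). Homer1, whose product tethers metabotropic glutamate receptors and whose short form is an immediate early gene, was at 308, 140.0, 244, 293 and 296 CPM in CN libraries 1 to 5, against 201 (lowest), 225 (median) and 248 (highest) CPM in N libraries. CN libraries 1, 4 and 5 lay above all N libraries, library 3 lay within their range and library 2 below it. Ppp3ca was called without CN library 2 by DESeq2 and not by edgeR, at 0.24 (SE 0.0578, adjusted p = 0.0553 by edgeR). Its 5 CN libraries, from 2642 to 3334 CPM, all lay above the highest N library at 2573 CPM. Shank3 at 0.38 (SE 0.0996, adjusted p = 0.0782 by edgeR) and Ppp1r9b at 0.36 (SE 0.0955, adjusted p = 0.0782 by edgeR) did not pass, so their difference between the injections was not shown. Of the separate list Lzts1, a postsynaptic scaffold gene, was called at 0.25 (SE 0.0539, adjusted p = 0.035 by edgeR) without CN library 2. With all libraries those of smallest p were Lrrtm4 (0.30), Lrrtm1 (0.30), Synpo (0.25) and Ppp1ca (0.34), and none passed. Ppp1ca had 0.19 without CN library 2.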

How the data were processed

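The deposited mouse table holds raw counts per Ensembl gene, 1 column per animal. Per the submitters' processing notes the tools were STAR, featureCounts and edgeR, with no versions, and the build is named as GRCh38, although the rows are mouse identifiers, so coordinates are given only for RefSeq promoters. The strand setting is not stated, so overlapping and antisense genes cannot be told apart. Symbols matched 54409 of 54532 rows. The counts were fitted as deposited with edgeR 4.0.16 (quasi-likelihood, robust, TMM, filterByExpr; R 4.3.3) over 21 libraries in 3 groups, with p-values adjusted by Benjamini-Hochberg over all genes, threshold 0.05. Alternatives were DESeq2 1.42.0, limma 3.58.1, other scalings, no filter, a length offset (lowess, span 0.3) and left-out libraries. On counts simulated without a length bias, 99% of genes changed by 1 log2 unit were recovered for N against control (19158 genes). Of those changed by 0.5, 78% were recovered, and 6.35% of calls were false. With a length bias simulated in CN library 2, the same shares were 100%, 83% and 3.68% (19182 genes). The simulated bias thus lowered neither share recovered. In the measured data, edgeR called 0 genes for N against control with CN library 2 and 197 without it. The simulated shares therefore do not give the power of the measured fit with CN library 2 kept. Smaller changes, which include those of all members for N, were not simulated. Named by rule with values per library were the members of smallest p per comparison and of highest level (Caskin2, Ppp1r9b, Dlgap3, Shank3, Bcr, Ppp3ca, Homer2, Shank1, Baiap2, Kalrn, Nrgn and Camk2b). Shank2, Dlg1, Lrrc7, Cyld and Homer1 were given likewise after their values were seen. Members, lists and tests were chosen with earlier results of these data known. Fits by Ambn class, without Xist-rich or Myh4-rich libraries, or combining further changes with the loss of CN library 2 were added after seeing the data. 1 mouse library whose label does not spell out an injection entered no comparison. Replicates were numbered in accession order. The rat table was not used here. Deviations per library used a pseudocount of 0.1 CPM. The SE given with an edgeR fold change was derived from the test, as the absolute log2 fold change divided by the square root of the F statistic. Each edgeR p-value of a gene sets a group difference against the spread between animals. That spread was estimated over all groups in the fit and moderated across genes, so a CN library also bears on N against control.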

Additional observations from a re-analysis of the deposited data

Results flagged for a closer look

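Single libraries stood away from the rest of their group by Dixon's test for several of the members described. CN library 2 was far below the other CN libraries for Bcr (402 CPM) and Kalrn (187 CPM), far above them for Ppp3ca (3334 CPM), and lowest for the median deviation of the 35 genes (-0.45). In the control group, library 5 was low for Bcr (512 CPM) and library 6 had a low length rho (-0.24). Over all members, 14 of 105 sets of values gave such a library, 11 of them CN library 2, where chance gives about 5%.

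The effects of the 2 injections, both set against the same controls, differed in the direct test of CN against N without CN library 2 for Homer1 (0.36), Caskin2 (0.32), Dlg1 (0.26), Bcr (0.24) and Cyld (0.23), all log2 fold changes higher in CN and past an adjusted p of 0.05 by edgeR. With all libraries 0 members passed in that test by edgeR. The 5 calls were also lost when CN library 1, 4 or 5 was left out as well, without the Myh4-rich libraries, and with the Ambn class as covariate (0 of 5 each).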

How the results depend on the processing

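The number of members called for N against control was 0 with all libraries. It ranged from 0 to 9 as libraries were left out in turn, the highest without CN library 2, with 1 without CN library 1 and 2 without N library 1. With the share of all genes called in the same fit beside it, it was 10 with only the N and control groups (1.14%), 3 by DESeq2 (0.489%), 1 with a length offset (0.0309%), 4 with that offset and CN library 2 left out (0.957%), and 10 without CN libraries 1 and 2 (1.5%). Without CN library 2 it was 12 by DESeq2 (3.65%) and 9 by limma-voom (0.987%). Taking the 9 calls without CN library 2 as the base, a further library left out gave 1 to 10 (0.0511% to 3.36% of genes), and Caskin2 was called in each of those 20 fits. Also without CN library 2, leaving out the 3 libraries rich in Xist, or the 2 rich in Myh4, gave 1 each (0.123% and 0.0256%), the Ambn class as covariate 2 (0.0814%), and each class alone 0 (0%). The median for N was -0.072 in the class with Ambn.

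For CN against N the count ranged from 0 to 5 as libraries were left out, with 1 without N library 1 (0.119%), and was 3 by DESeq2 (0.927%), 1 with the length offset (0.144%) and 4 with the offset and without CN library 2 (0.616%). From the base of 5, a further library gave 0 to 9. It was 0 without CN library 1, 4 or 5, 11 by DESeq2 (3.09%), 3 without Xist-rich libraries (0.164%), and 0 without Myh4-rich libraries (0.0308%) or with the Ambn covariate (0.0407%). Its median was 0.13 without CN library 2, 0.11 with the offset, 0.11 with both and 0.13 without CN libraries 1 and 2 (range -0.0018 to 0.13 as libraries were left out). For CN against control the count was 0 throughout, and the median was -0.0019 without CN library 2, 0.019 with the offset, -0.012 with both and 0.013 without CN libraries 1 and 2 (range -0.10 to -0.0019). The median for N ranged from -0.15 to -0.11. Of the separate list, 2 genes for N, 1 for CN against N and 0 for CN against control were called without CN library 2.

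The length rho of CN without library 2 minus control reversed from 0.014 to -0.025 with genes of at least 10 CPM. Cause was not tested in any of these cases. The planned rat comparison was not run, since rat identifiers could not be paired with symbols here. No paired analysis was possible because replicate numbers were given in accession order and do not pair animals. Depth limits Homer3 most, at 5.68 CPM in its lowest library.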

Other observations

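The mouse library whose label does not spell out an injection had a median deviation of 0.06 log2 units over the 35 genes, with 7 of them below the control mean. Shank3 was at 524 CPM there, Ppp1r9b at 1551 CPM, Dlgap3 at 683 CPM, Caskin2 at 29.6 CPM and Cyld at 513 CPM. Caskin2 and Cyld were thus below every control library and below the highest N library in it.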
